A study of Mus musculus with 15 samples.

Results

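Mitochondria carry their own ribosome, whose proteins are encoded by nuclear genes named Mrpl for the large subunit and Mrps for the small subunit. The genes described here are the mouse protein-coding genes whose symbol is Mrpl or Mrps followed by a digit. They number 78 of the 49315 gene IDs in the tables, with 49 genes named for the large subunit and 29 for the small subunit. All 78 had counts in all 15 libraries and passed the filter on low counts in each comparison, and the lowest count was 28, for Mrpl53. A further 5 IDs with such a symbol are pseudogenes. They were left out, and none held more than 1.41% of its parent gene's reads (Mrpl23-ps1).

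The proteins are made in the cytosol, imported into mitochondria and assembled on ribosomal RNA that the mitochondrial genome supplies. The finished particle translates only the mRNAs of the mitochondrial genome, which encode subunits of the respiratory chain and of ATP synthase. Many of its proteins have a counterpart in bacterial ribosomes, and others exist in mitochondria alone. Differentiating muscle cells build up respiratory capacity, and the ribosome is one of the machines they need for it. By general knowledge of the proteins, 45 of the genes were placed among those with a bacterial counterpart and 31 among the mitochondria-specific ones, and 2 were left unassigned. Some symbols mislead: Mrps30 and Mrps18a encode proteins of the large subunit in ribosome structures, and the Mrps36 product is now known as a part of the oxoglutarate dehydrogenase complex.

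Polyadenylated RNA was sequenced from primary myoblasts of wild-type C57BL/6J mice, the precursor cells of muscle fibres, after 1 day of differentiation. The 3 groups of 5 libraries had received lipid-delivered small interfering RNA (siRNA) against Lmod1 (siLmod1), against Sirt1 (siSirt1), or a control siRNA (siCtrl). Lmod1 encodes leiomodin 1, which nucleates actin filaments, and Sirt1 encodes a NAD-dependent deacetylase. The study looked for early transcriptional effects that could account for a rescue by double knockdown, and compared each knockdown with the control. The libraries carry the numbers 1, 2, 3, 4 and 7 in each group, read here as the 5 primary lines. Each group is thus 1 transfection of each line, with siRNA sequences not given in the sources used here, and the p-values speak for these 5 lines.

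The libraries held 21004908 to 33601761 counted reads, of which the 78 genes took 0.252% to 0.339%. Levels are given as CPM, counts scaled to a fixed library total by TMM over all 15 libraries, or as the authors' TPM, which also divides by gene length. In lines 1, 2, 3, 4 and 7, Lmod1 was at 23.2, 44.3, 35, 6.22 and 43.4 CPM in siCtrl, against 2.51, 5.46, 3.88, 1.41 and 4.24 CPM in siLmod1. Sirt1 was at 27.4, 17.9, 21.5, 28.5 and 36.2 CPM in siCtrl, against 4.59, 3.49, 3.49, 10.7 and 9.23 CPM in siSirt1. Neither pair of groups overlapped, and the difference in mean log2(CPM + 1) was -2.63 for Lmod1 and -1.99 for Sirt1 (exact two-sided permutation test, p = 0.00794 for each, the smallest that 252 assignments allow, n = 5). Sirt1 was also 0.54 higher on that scale in siLmod1 than in siCtrl (exact permutation p = 0.0476, n = 5). Lmod1 in siSirt1 was at 8.29, 32.6, 24.5, 3.45 and 14.8 CPM, below siCtrl in each line. Its difference from siCtrl was -0.90 on that scale (exact permutation p = 0.238, n = 5). These permutations did not pair the libraries by line. All 10 myoblast markers were present at a mean of 1 TPM or more in every group, with a summed level of 11650 to 26340 TPM in siCtrl, against 1.07 to 8.44 TPM for the 7 fibroblast markers. The siSirt1 library of line 1 stood apart from its own line: after removal of the group means, its correlation across genes with line 1 was 0.278 in siCtrl and 0.304 in siLmod1, and with line 3 it was 0.269 and 0.205. The siSirt1 results that the text turns on are therefore also given without line 1.

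In control myoblasts the mean level of the genes ran from 4.59 to 332 TPM, with a median of 49.6 TPM. Large-subunit genes had a median of 60.6 TPM and small-subunit genes a median of 43.4 TPM. The highest mean was that of Mrpl42, a mitochondria-specific large-subunit protein, at 332.0 ± 58.6 TPM (SD, n = 5), followed by Mrpl12, whose protein forms the flexible stalk that binds translation factors, at 182.4 ± 22.5 TPM. Mrps21 followed at 167.9 ± 5.7 TPM, Mrpl41 at 153.2 ± 29.1 TPM and Mrpl28 at 134.9 ± 15.1 TPM. Neighbours in this order, from Mrpl12 down to Mrpl28, differed by less than the sum of their SDs. Mrpl53 was the lowest at 4.6 ± 0.7 TPM, below Mrpl48 at 11.5 ± 0.9 TPM and Mrps35 at 12.5 ± 0.9 TPM, and the last 2 differed by less than the sum of their SDs.

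**Figure D1:**
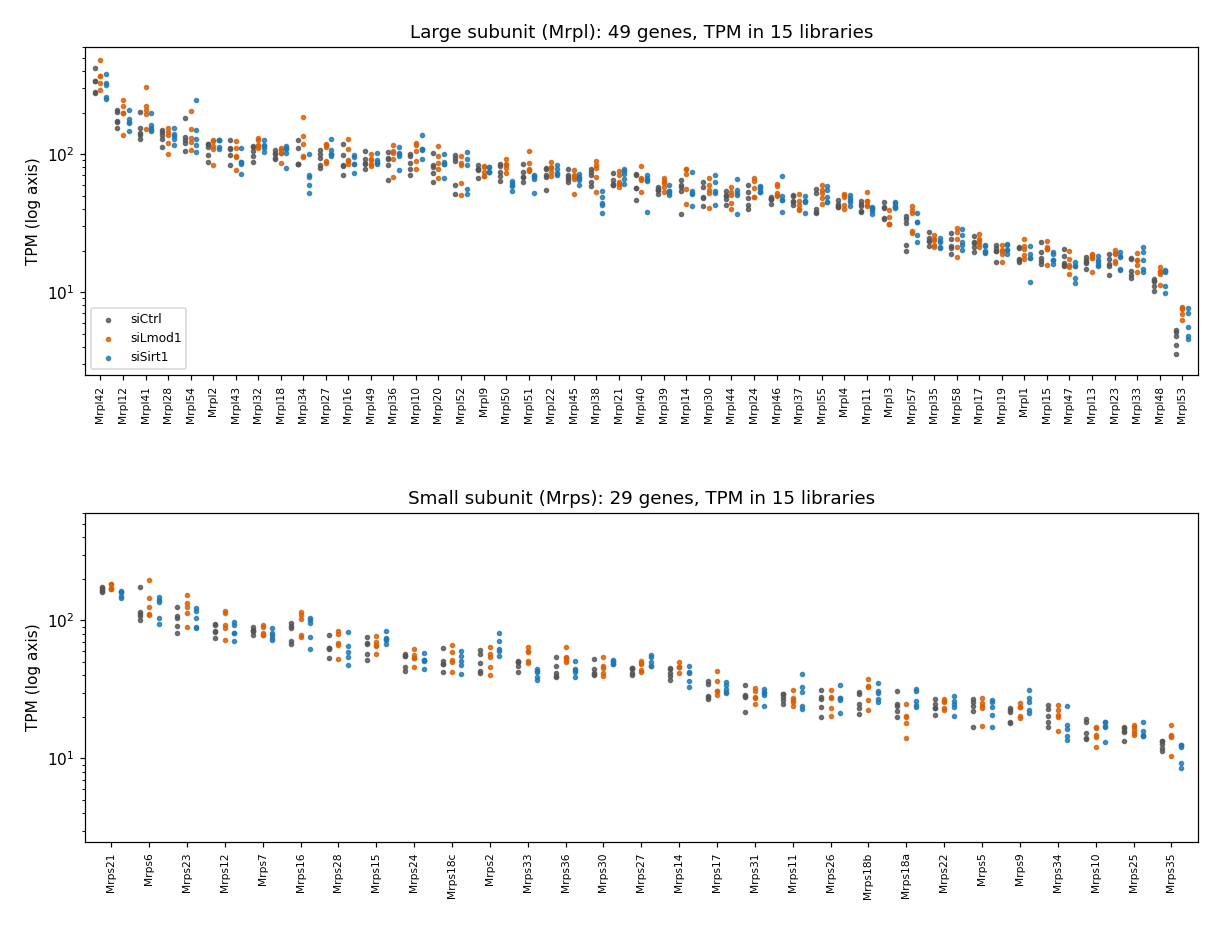
TPM of each of the 49 Mrpl and 29 Mrps genes on a log axis, ordered by level, with 1 point for each of the 15 libraries coloured by group. The genes span means of 4.59 to 332 TPM in siCtrl, and the spread of the 15 points of a gene is small beside the distance between the genes at either end.

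Part of this order is set by the gene model behind the TPM. The ratio of count to TPM gives the length that was divided by, and for 64 of the 78 genes it came within 5% of the exon length that GENCODE M21 gives. For Mrpl42 it gave 666 bases against 3682 in M21, so that its first place rests on the shorter model. The same counts over the M21 length would give 60.0 TPM and rank 29. For Mrpl48 and Mrps35 the models matched, with 8152 and 8631 exonic bases, and such lengths lower the TPM of any transcript that uses only part of them.

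The genes differed between primary lines as well as between siRNA groups. In a split of the variance of log2(CPM + 1) over the 15 libraries, line took a larger share than group for 61 of the 78 genes, 39 large and 22 small. The median share was 56.1% for line and 21.6% for group, against 59.2% and 15.1% over 14592 genes tested in every comparison. Line has 4 degrees of freedom and group 2, and per degree of freedom the medians were 14.03% and 10.78%, with line ahead in 47 of the 78 genes (60.3%, against 66.2% of all genes). Mrpl52 varied most within siCtrl, with an SD of 0.49 on that log2 scale. It stood at 21.1, 36.0, 16.9, 35 and 35.5 CPM in lines 1, 2, 3, 4 and 7, and line held 94.6% of its variance. Lines 1 and 3 were low for it in all 3 groups. Mrpl18, the mitochondrial counterpart of a protein that binds the bacterial 5S RNA, varied least, at 44.5, 45.3, 44.5, 45.4 and 46.4 CPM in siCtrl. Line 4 had the highest level of 38 of the 78 genes in siCtrl and again of 38 in siLmod1, and line 7 the lowest of 37 and of 50. In siSirt1 line 2 was highest for 33 and line 4 for 29, and line 1 was lowest for 31 and line 7 for 30. At the other end, group took 80.2% of the variance of Mrps33, 79.2% of that of Mrpl50 and 78% of that of Mrpl38.

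Summed over the 49 large-subunit genes, the level in lines 1, 2, 3, 4 and 7 was 3455, 3316, 3482, 3588 and 2993 TPM in siCtrl. It was 3841, 3507, 3832, 4181 and 3098 TPM in siLmod1, higher than siCtrl in each line, and the groups overlapped. In siSirt1 it was 3178, 3368, 3452, 3688 and 3243 TPM, above siCtrl in 3 lines and below in 2. The 29 small-subunit genes gave 1441 ± 69.9 TPM in siCtrl, 1564 ± 128 TPM in siLmod1 and 1478 ± 52.2 TPM in siSirt1 (SD, n = 5), and siLmod1 was again above siCtrl in 5 of 5 lines. TPM carries no TMM scaling. With TMM the median log2 fold change of the 78 genes in siLmod1 against siCtrl was -0.02 in line 2. In siSirt1 against siCtrl it was -0.09, while the large-subunit sums had means of 3386 TPM in siSirt1 and 3367 TPM in siCtrl. The mean TPM per large-subunit gene over that per small-subunit gene was 1.38 ± 0.0517 in siCtrl, 1.40 ± 0.0539 in siLmod1 and 1.36 ± 0.0484 in siSirt1. The group means of the ratio differed by less than its spread over the lines. Within lines it was higher in siLmod1 than in siCtrl in 5 of 5, by 0.0133 ± 0.00937 (SD, n = 5), and lower in siSirt1 than in siCtrl in 4 of 5, by -0.0265 ± 0.0429. It was highest in line 4 in siCtrl and siLmod1, at 1.46 and 1.48. In these bulk samples, fewer cells that hold a transcript and less of it per cell cannot be told apart.

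**Figure D2:**
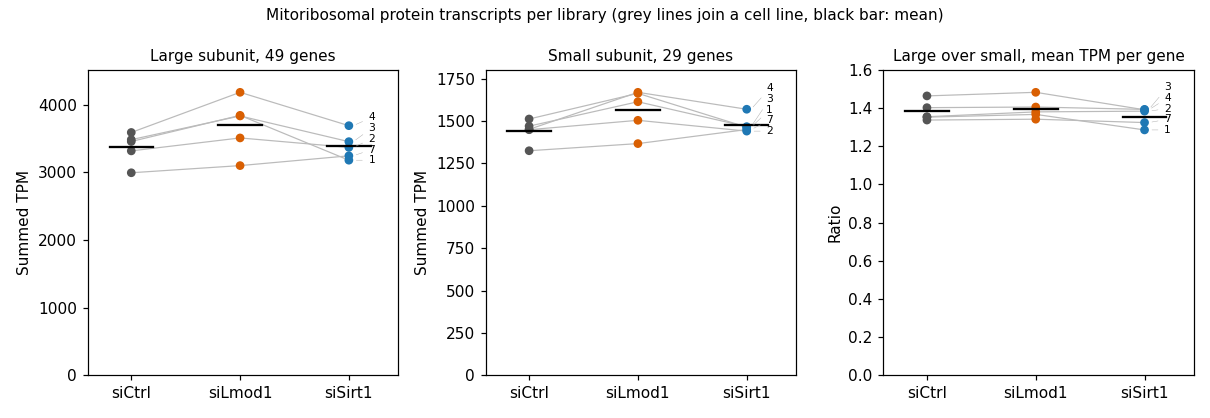
Summed TPM of the large-subunit genes, summed TPM of the small-subunit genes, and the ratio of mean TPM per gene, for each library by group, with grey lines joining a primary line, line numbers at the right and a black bar at the mean of 5. Both sums, which carry no TMM scaling, rise from siCtrl to siLmod1 along every grey line. The ratio stays between 1.29 and 1.48 in all libraries.

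The first comparison asked what early transcriptional changes followed loss of Lmod1. Without the line in the model, none of the 78 genes was called higher or lower by edgeR's quasi-likelihood test at a Benjamini-Hochberg adjusted p under 0.05, where 0% of 15022 genes were called higher and 0.113% lower. With no adjustment, 1 member was higher and 1 lower at a p under 0.05, where 4.23% of all genes were higher and 4.77% lower. DESeq2 called 0 members, and of all genes 0.616% higher and 1.02% lower. The lines pair the libraries, and with the line as a block 9 members rose and 2 fell, that is 11.5% and 2.56% of them, where 12.9% of all genes rose and 16.5% fell. The share that rose was thus near the background and the share that fell below it. Their median log2 fold change was 0.07 in either fit, against -0.01 over all genes tested, with 56 genes above 0 and 22 below. Within lines 1, 2, 3, 4 and 7 the median was 0.12, -0.02, 0.12, 0.08 and 0.01. A scaling by library total alone gave 64 genes above 0 and raised the median of all genes to 0.04 and that of the members to 0.13. In 18 members siLmod1 lay above siCtrl in 5 of 5 lines (23.1%, against 17.8% of all genes), and in 3 it lay below in 5 of 5 (3.85%, against 18.6%).

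The large-subunit genes had a median of 0.09 and the small-subunit genes one of 0.04 in both fits. With the block 7 of 49 genes named for the large subunit rose and 1 fell, against 2 and 1 of 29 named for the small subunit. Placed by structure, with Mrps18a and Mrps30 in the large subunit and Mrps36 in neither, 7 of 51 rose and 2 fell, against 1 and 0 of 26. Among the 31 mitochondria-specific genes 7 rose (22.6%) and 0 fell, and Mrps36 is among the 31 and the 7. Among the 45 with a bacterial counterpart 2 rose (4.44%) and 1 fell (2.22%). The blocked medians of these classes were 0.07 and 0.07. With line 1 left out, 1 of the 31 rose (3.23%) and 0 fell, and 2 of the 45 rose (4.44%) and 1 fell (2.22%). There 7.79% of all genes rose and 11% fell. The difference between these classes was not tested.

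Mrpl41, a mitochondria-specific large-subunit protein (chr2:24974117-24975098, minus strand, no overlapping gene), changed most firmly among those that rose. It was at 43.5, 39.4, 37.8, 63.6 and 39.5 CPM in siCtrl, against 58.3, 43.9, 52.1, 89.5 and 65 CPM in siLmod1 (lines 1, 2, 3, 4 and 7). Line 4 was the highest in both groups, each line rose, and the groups overlapped because the lines differ. The log2 fold change with the block was 0.44 ± 0.072 (SE; edgeR, adjusted p = 0.00149), against an adjusted p of 0.565 without it.

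Mrps18a, which belongs to the large subunit in structures, fell most. It went from 28.3, 31.5, 34, 28.9 and 24 CPM in siCtrl to 21, 24.4, 27.3, 24.5 and 16.9 CPM in siLmod1, lower in each line. Its blocked log2 fold change was -0.38 ± 0.0626 (edgeR adjusted p = 0.00162; 0.476 without the block). The gene (chr17:46110986-46128910, plus strand) overlaps Rsph9 on the other strand, and the library kit keeps no strand, so reads of the overlap cannot be assigned. Mrpl3, the counterpart of a bacterial protein close to the peptidyl transferase centre, was at 85.8, 79.0, 81.6, 105.6 and 73.3 CPM in siCtrl, against 65.1, 67.2, 69.6, 86.7 and 68.2 CPM in siLmod1. Each line was lower, with a blocked log2 fold change of -0.26 ± 0.0529 (edgeR adjusted p = 0.00482; 0.557 without the block).

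Mrpl53 was the only member whose groups did not overlap in this comparison, where 1.42% of all genes were higher without overlap and 1.3% lower. It is a mitochondria-specific large-subunit gene of low level, at 0.97 to 1.39 CPM in siCtrl and 1.66 to 1.95 CPM in siLmod1, far above the limit of 3 counts, which is at most 0.143 CPM. Its blocked log2 fold change was 0.63 ± 0.179 (edgeR adjusted p = 0.0244; 0.31 without the block). It overlaps Gm42688 on its own strand and Ccdc142os on the other (chr6:83109040-83109939, plus strand), so its reads may not all be its own. The other members that rose with the block were Mrps23 (0.22), Mrpl34 (0.29), Mrpl51 (0.18), Mrps36 (0.27), Mrpl48 (0.19), Mrpl10 (0.19) and Mrpl57 (0.25) on the log2 scale, with edgeR adjusted p-values from 0.0126 to 0.0301. All of these moved the same way in 5 of 5 lines except Mrpl57, in 4. Below the control but not past the threshold were Mrps10 at -0.16, Mrpl37 at -0.14, Mrpl47 at -0.13 and Mrpl43 at -0.12.

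Fewer members were called higher when line 1 or line 3 was left out. Without line 1 the blocked fit called 3 members higher, and without line 3 also 3, but Mrpl41 alone was among both. Leaving out line 1 took the share of members called higher from 11.5% to 3.85%. The share of all genes called higher went from 12.9% to 7.79%, and that called lower from 16.5% to 11%. The share of all genes without line 3 is not given here. How far the members' loss comes from the smaller number of libraries was not tested. Mrpl41 and Mrps18a were called in all 11 blocked settings tried, Mrpl3 and Mrps23 in 10, and Mrpl48 and Mrpl53 in 6. Cell-type markers moved in the same libraries. With the block, 2 of 4 fibroblast markers tested (Col1a1 and Col1a2) were called lower in siLmod1 and 0 higher. Also called lower were 4 of 10 myoblast markers (Myog, Pax7, Cdh15 and Mymk) and 6 of 10 smooth muscle and pericyte markers tested. The summed level of the latter list was 7746 to 12750 TPM in siCtrl and 6557 to 11990 TPM in siLmod1, with 76.3% of it from Acta2 and 22.9% from Des in siCtrl, both of which differentiating myoblasts are known to express. None of its genes was at 0 in every library of a group. The part of these markers in the members' values was not tested.

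**Figure D3:**
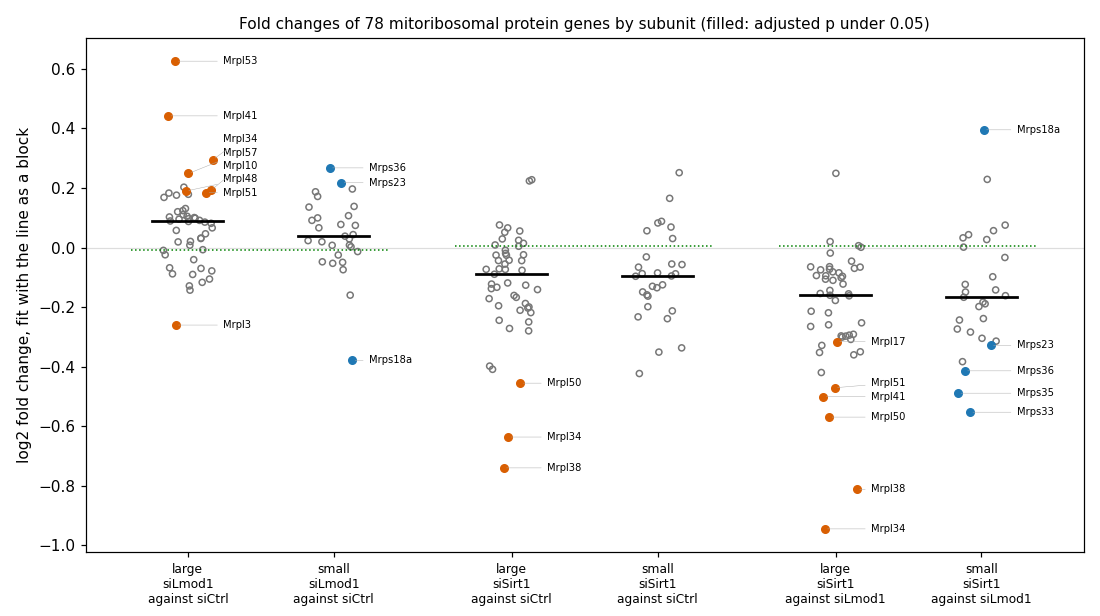
Log2 fold change of each of the 78 genes in the fit with the line as a block, for the 3 comparisons, with large-subunit and small-subunit genes in separate columns and filled points at an adjusted p under 0.05. The points of siLmod1 against siCtrl lie mostly above 0 (56 of 78), those of siSirt1 against siCtrl mostly below (60 of 78), and the lowest are Mrpl38 and Mrpl34 in the comparisons with siSirt1.

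The comparison of siSirt1 with siCtrl uses the same 5 control libraries. Without the block edgeR's test called 0 members higher and 0 lower, where 0.0134% of 14912 genes were higher and 0.114% lower. With no adjustment, 0 were higher and 11 lower (14.1%) at a p under 0.05, where 4.86% of all genes were higher and 4.79% lower. DESeq2 called 2 lower (2.56%) and 0 higher, against 1.28% and 0.68% of all genes. With the block 3 members fell and 0 rose, 3.85% of the 78 against 4.35% of all genes lower and 2.72% higher, so the share that fell was near the background. The 3 were Mrpl38, Mrpl50 and Mrpl34, all of the large subunit. The median log2 fold change of the members was -0.09 against 0.02 over all genes, with 59 below 0, and with the block -0.09 against 0.01 with 60 below 0. Scaling by library total alone raised the median of all genes to 0.13 and that of the members to 0.01, with 41 genes then above 0 and 37 below. Relative to all genes the members stayed lower, by 0.12 with that scaling and 0.11 with TMM. Against the control in the same line, 24 members were lower in 5 of 5 lines (30.8%, against 12.7% of all genes) and 3 higher in 5 of 5 (3.85%, against 12.3%). The subunits had close medians, -0.08 for the large and -0.09 for the small. The median within lines 1, 2, 3, 4 and 7 was -0.20, -0.06, 0.01, -0.15 and -0.09, and without line 1 it was -0.09 with the block and -0.07 without the siSirt1 library of that line. Without line 1 the block called 1 member, Mrpl38, lower (1.28%, against 1.73% of all genes).

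Markers moved in these libraries too. With the block, 1 of 10 myoblast markers (Mymk, -0.54, edgeR adjusted p = 0.0317) and 2 of 10 smooth muscle and pericyte markers tested (Acta2 at -0.82, adjusted p = 0.0163, and Abcc9 at -1.32, adjusted p = 0.0175) were called lower in siSirt1. The summed level of the smooth muscle and pericyte list was 4504 to 9647 TPM in siSirt1. Of 4 fibroblast markers tested 1 was called, Dcn, higher at 1.85 (edgeR adjusted p = 0.028), with means of 0.29 CPM in siCtrl and 1.12 CPM in siSirt1. Pdgfra lay above 0 at 0.48, and Col1a1 at -0.92 and Col1a2 at -0.26 lay below, none of them called. That list summed to 1.17 to 15.97 TPM. Without line 1 the adjusted p of the 4 called genes ran from 0.0541 for Acta2 to 0.0923 for Mymk. Their part in the members' values was not tested.

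Mrpl38 (chr11:116131817-116138868, minus strand), a mitochondria-specific protein of the central protuberance of the large subunit, had the largest decrease. Its level was 60.4, 55.3, 58.9, 63.6 and 48.8 CPM in siCtrl, 66.9, 56.5, 68.0, 67.5 and 44.1 CPM in siLmod1, and 35, 36.6, 40.8, 32.8 and 27.2 CPM in siSirt1 (lines 1, 2, 3, 4 and 7). All 5 siSirt1 libraries were below all 10 others. The log2 fold change against siCtrl was -0.74 ± 0.0922 with the block (SE; edgeR adjusted p = 0.0069) and -0.73 without it (adjusted p = 0.0735). Without line 1 it was -0.74, and it was called in all 11 blocked settings.

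Mrpl50 (chr4:49512596-49521093, minus strand), also mitochondria-specific and of the large subunit, was at 46.4, 59.1, 53.6, 47.3 and 51.1 CPM in siCtrl, against 32.1, 43.4, 37.0, 37.8 and 37.4 CPM in siSirt1. The groups did not overlap. Its log2 fold change was -0.46 ± 0.0771 with the block (edgeR adjusted p = 0.0163; 0.171 without it). Leaving out line 1, 2 or 3 ended the call, and without line 1 the value was -0.45.

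Mrpl34 (chr8:71464959-71465747, plus strand), a small protein with a bacterial counterpart, was at 21.5, 17.6, 15.5, 27.1 and 16.7 CPM in siCtrl, against 8.96, 11.7, 12.2, 18.3 and 12.3 CPM in siSirt1. Each line was lower, line 1 by the most, and the groups overlapped through line 4. Its log2 fold change was -0.64 ± 0.151 with the block (edgeR adjusted p = 0.0451; 0.378 without it), and it lost the call on leaving out any 1 line. Without line 1 it was -0.50.

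Mrps33 and Mrps21, of the small subunit, were the other members without overlap, where 1.64% of all genes were lower without it and 1.3% higher. Mrps33, which is mitochondria-specific (chr6:39801804-39810988, minus strand), was at 27.1, 28.7, 24.7, 25 and 25.1 CPM in siCtrl, against 21, 23.4, 20.9, 18.6 and 18.7 CPM in siSirt1, a blocked log2 fold change of -0.35 that missed the threshold (edgeR adjusted p = 0.0536). Without line 1 it was -0.36 (adjusted p = 0.124). Mrps21 had -0.24 (adjusted p = 0.103). Mrpl47 (-0.41), Mrps34 (-0.42) and Mrpl43 (-0.40) were as low or lower in fold change and were not called either, and each overlaps a gene on the other strand. With the block 18 members lay above the control, the highest of them Mrps2 at 0.25, Mrpl10 at 0.23, Mrpl53 at 0.22, Mrps9 at 0.17, Mrps15 at 0.09 and Mrps27 at 0.08, and none was called (adjusted p = 0.0896 for Mrps2, the smallest).

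**Figure D4:**
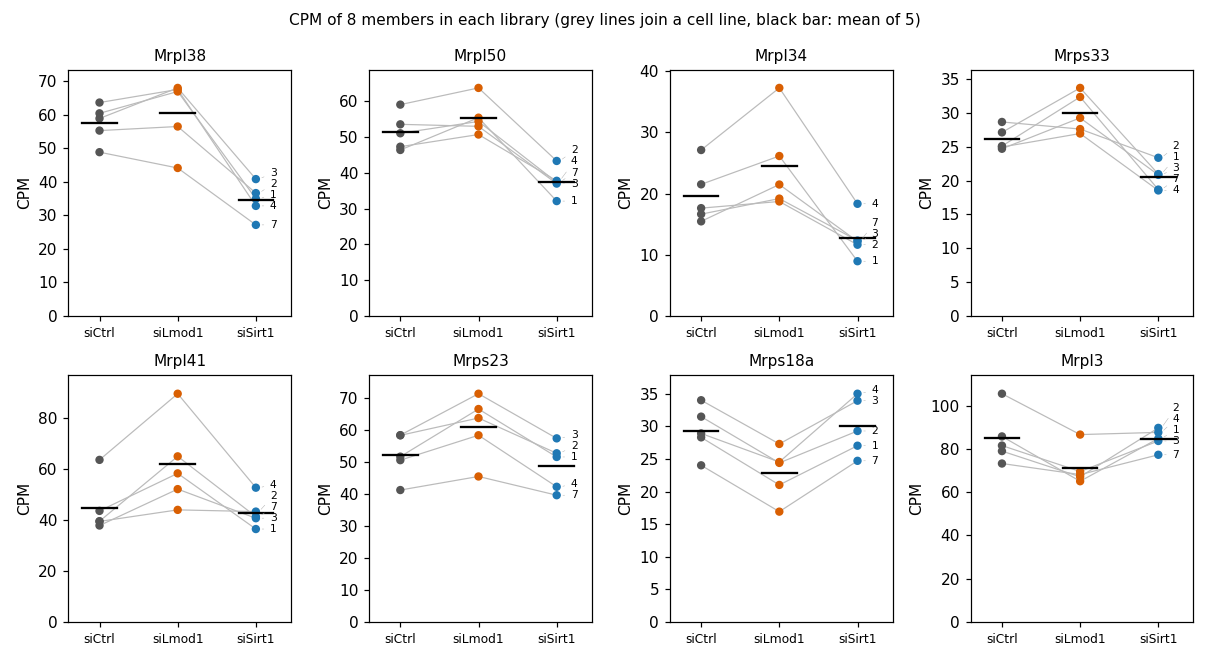
CPM of 8 members in each of the 15 libraries by group, with grey lines joining a primary line, line numbers at the right, and a black bar at the mean of 5. For Mrpl38, Mrpl50 and Mrps33 all 5 siSirt1 points lie below the siCtrl points, while Mrpl41 rises from siCtrl to siLmod1 along each grey line.

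Of the 7 members with the lowest blocked fold change in siSirt1 against siCtrl, 6 hold 1 or more of 3 short sequences in their longest annotated 3′ UTR. The cut at 7 was not set beforehand. It falls at Mrps33, which holds such a sequence, and the next members in order, Mrps35, Mrpl17 and Mrpl51, hold none. An siRNA can lower other transcripts whose 3′ UTR pairs with its first bases, so words of 7 bases were scored over the 3′ UTRs of all other genes, with the members left out, by how low the genes that hold them stood in siSirt1 against siCtrl. Of 16296 words, 5 had a negative score beyond the limit of 7.5, a limit set after the scores were seen, and 3 of these 5 also occur in the Sirt1 transcript. How many of all the words scored occur in that transcript was not counted. The 3 words are GTGAATA, found in the 3′ UTR of 10.02% of 11132 other genes, CATATAC, in 7.46%, and CTCACTA, in 8.75%. They were searched on the transcribed strand of the longest annotated 3′ UTR (GENCODE M21, mm10) and do not overlap one another. Of the 77 members with such a UTR, 14 (18.2%) hold at least 1 of them, against 22.5% of other genes. The sites in the 6 lowest of these members are shown with 30 bases of context and the word in capitals, 5′ to 3′ along the transcript, since these are the members the comparison turns on.
Mrpl38, chr11:116131826-116131855, minus strand: ctcgattctatGTGAATAaaatactttttt
Mrpl34, chr8:71465621-71465650, plus strand: catccatttctGTGAATAtatttgaaggca
Mrps33, chr6:39802193-39802222, minus strand: tctataatggaGTGAATAaactattgttga
Mrpl43, chr19:45005521-45005550, minus strand: gcagtgaccttGTGAATAccctaattctga
Mrpl47, chr3:32727525-32727554, minus strand: tgtgtcctgacGTGAATAcctgttaagcag
Mrpl50, chr4:49514128-49514157, minus strand: tcattcttattCTCACTAgcgtgactgaaa

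GTGAATA thus stands in 5 of the 6, starting 153 bases into the UTR in Mrpl38, 172 in Mrpl34, 231 in Mrps33, 163 in Mrpl43 and 54 in Mrpl47. Mrpl47 also holds CATATAC and CTCACTA. Mrpl50 holds CTCACTA 47 bases into its UTR. These 6 were among the 7 members with the lowest blocked fold change, a cut that falls at the last of the 6. The exception is Mrps34, which has none of the words. The other 8 members with a word (Mrpl12, Mrpl15, Mrpl19, Mrpl39, Mrpl57, Mrps14, Mrps17 and Mrps26) had log2 fold changes of -0.20 to -0.04.

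All 14 members with a word were below 0 in siSirt1 against siCtrl, with a median log2 fold change of -0.20, against 46 of the 63 without a word and a median of -0.09. The same 14 had a median of 0.09 in siLmod1 against siCtrl, beside 0.07 for the 63. Over the other genes, the median was -0.07 for 2505 genes with a word and 0.02 for those without, and the words were chosen on these genes. UTR length moves with the presence of a word: its median was 1898 bases in the 14 and 323 in the 63. With the shortest annotated UTR 11 members held a word and had a median of -0.25, against -0.09. There Mrps33 has no word, and Mrpl1 (-0.25), which has none in its longest UTR, holds CATATAC and CTCACTA. Without line 1 and with the longest UTRs, the 14 had a median of -0.22, all below 0, and the 63 one of -0.08. Whether the words or the UTR length have a part in the members' lower counts was not tested.

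The same scan for siLmod1 against siCtrl gave 4 words beyond the limit, of which 3 occur in the Lmod1 transcript. GACGAAT stood in the 3′ UTR of 1.19% of 11037 other genes, TGAACCT in 11.7% and ATGAACC in 7.20%, and the last pair overlaps by 6 bases. At least 1 of them stood in 8 of the 77 members, against 16.35% of other genes. In these 8 the median log2 fold change was 0.01, with 3 below 0, against 0.08 in 69 without. Of the 2 members that fell, Mrpl3 holds ATGAACC 43 bases into its UTR, shown because it is the lowest of the 8.
Mrpl3, chr9:105077174-105077203, plus strand: cgtgcactttgATGAACCagatcaggaatg

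Mrps18a, the lowest member of all in that comparison, has none of the words in its longest annotated UTR, but TGAACCT in its shortest. With the shortest UTRs the median was -0.07 in 7 members with a word and 0.08 in 70 without.

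**Figure D5:**
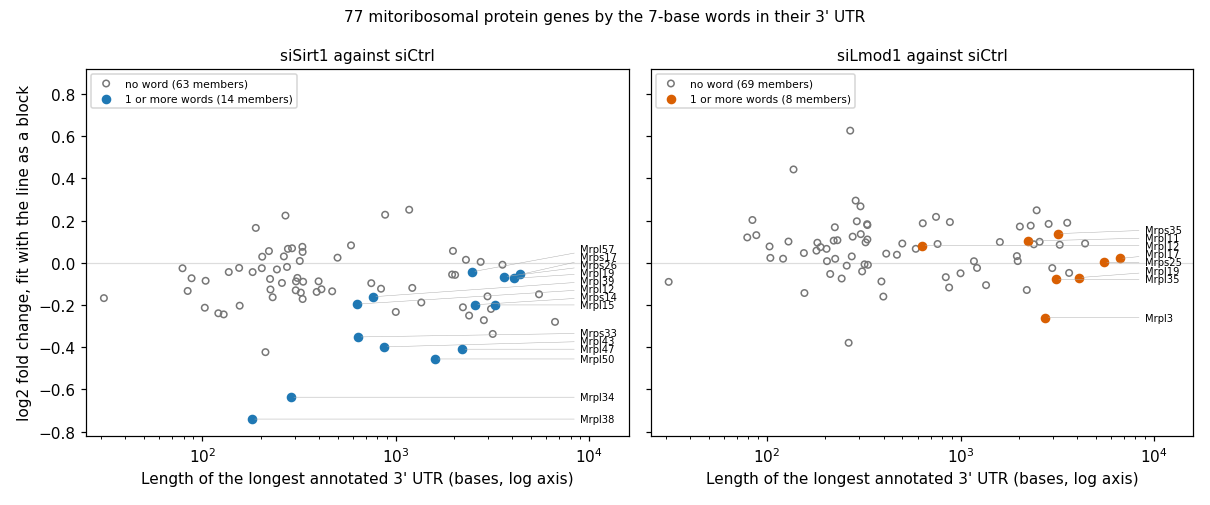
Blocked log2 fold change of 77 members against the length of their longest annotated 3′ UTR in bases on a log axis, for siSirt1 against siCtrl (left) and siLmod1 against siCtrl (right), with members that hold 1 or more of the words of that comparison filled. On the left all 14 filled points lie below 0 and 6 of them from -0.35 to -0.74. On the right the 8 filled points lie on both sides of 0.

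The knockdowns were also compared with each other, which uses the same siLmod1 and siSirt1 libraries as above. Here 3 members were called without the block, all lower in siSirt1, where 0.847% of 14998 genes were lower and 0.68% higher. They were Mrpl38 at -0.82 ± 0.157 and Mrpl50 at -0.57 ± 0.11 (edgeR adjusted p = 0.0365 for each) and Mrps33 at -0.55 ± 0.116 (edgeR adjusted p = 0.0482). Mrpl50 was at 55.5, 63.8, 53.0, 50.7 and 54.4 CPM in siLmod1, and Mrps33 at 33.7, 27.6, 29.3, 27.0 and 32.4 CPM. In all 3 every siSirt1 library was below every siLmod1 library. Leaving out 1 of the 10 libraries brought these calls to 0 in 8 cases, 1 without the siLmod1 library of line 7, and 2 without the siSirt1 library of line 2.

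With the block 10 members fell and 1 rose in siSirt1 against siLmod1, 12.8% and 1.28% of the 78, where 8.43% of all genes fell and 7.43% rose. Without line 1 the count was 3 lower (3.85%) and 0 higher, where 3.79% of all genes were lower and 3.15% higher. Without line 3 it was the same, and the 3 were Mrpl34, Mrpl38 and Mrpl50 each time. These 3 were called in all 11 blocked settings and Mrps33 in 9. Mrpl34 had the largest change, from 26.2, 18.7, 21.5, 37.3 and 19.2 CPM in siLmod1 to the siSirt1 values given above, without overlap and with a log2 fold change of -0.95 ± 0.15 (edgeR adjusted p = 0.00735; 0.0866 without the block). Mrps35, a mitochondria-specific small-subunit gene, went from 48.0, 41.6, 37.4, 40.6 and 29.4 CPM to 30.6, 33.6, 31.9, 22.1 and 22.9 CPM, lower in each line (-0.49, adjusted p = 0.0281). Mrpl51 went from 135.1, 102.0, 104.0, 101.1 and 100.2 CPM to 74.9, 90.6, 82.4, 63.2 and 81.5 CPM, without overlap (-0.47, adjusted p = 0.0288). The other members that fell were Mrpl41 (-0.50), Mrps36 (-0.41), Mrps23 (-0.33) and Mrpl17 (-0.32). Mrps18a was the member that rose, by 0.40 (edgeR adjusted p = 0.0259). Of the others above siLmod1, Mrps2 was at 0.23 and missed the threshold.

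The median over the members was -0.17 without the block, against 0.02 over all genes, and -0.16 against 0.01 with it, with 67 and 66 genes below 0. Without line 1 the blocked median was -0.12. In 31 members siSirt1 lay below siLmod1 in 5 of 5 lines (39.7%, against 15.4% of all genes), and in 8 the groups did not overlap (Mrpl11, Mrpl17, Mrpl34, Mrpl38, Mrpl50, Mrpl51, Mrps21 and Mrps33), where 3.11% of all genes were lower without overlap and 2.63% higher. The subunits again had close medians with the block, -0.16 for the large and -0.17 for the small. The mitochondria-specific genes had a median of -0.25 and 8 of 31 fell (25.8%), Mrps36 among them. Those with a bacterial counterpart had -0.16 and 2 of 45 fell (4.44%), where 8.43% of all genes fell. With line 1 left out, the medians were -0.12 and -0.12, and 2 of 31 (6.45%) and 1 of 45 (2.22%) fell, where 3.79% of all genes fell. The difference between these classes was not tested.

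Other genes of mitochondrial translation were read from lists, with the block throughout, and without it none of their genes was called by edgeR in any of the 3 comparisons. Their counts stand against the 12.9% of all genes that rose and 16.5% that fell in siLmod1, and the 2.72% and 4.35% in siSirt1. Of the 5 mitoribosomal proteins with other symbols, Dap3, a GTP-binding protein of the small subunit, was the one called. It was at 67.8, 70.6, 65.4, 67.0 and 65 CPM in siCtrl, against 78.7, 73.9, 79.2, 79.2 and 73.1 CPM in siLmod1, higher without overlap (0.18, edgeR adjusted p = 0.0193). Of 30 assembly and rRNA modification factors 6 rose and 1 fell in siLmod1, among those that rose Lrpprc at 0.20, which stabilises mitochondrial mRNAs, and Mpv17l2 at 0.30. None passed in siSirt1 against siCtrl.

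Translation factors moved in both directions in siLmod1, where 4 of 14 rose and 3 fell. Gfm1, the elongation factor that drives translocation, rose by 0.33 (edgeR adjusted p = 0.000906). Tsfm, the exchange factor that recharges elongation factor Tu, fell by 0.47 on the log2 scale (edgeR adjusted p = 0.00192), from 24.9, 22.7, 20.8, 32.2 and 18.2 CPM to 17.4, 19.2, 16.8, 20.9 and 11.8 CPM. In siSirt1 against siCtrl 1 of 13 fell, Tufm, the elongation factor Tu itself, at -0.34 (edgeR adjusted p = 0.0454), and -0.31 without line 1 (adjusted p = 0.12). Of 20 mitochondrial aminoacyl-tRNA synthetases 3 rose and 1 fell in siLmod1 and 1 rose and 1 fell in siSirt1. Iars2, the isoleucine enzyme, was called in all 3 comparisons, at 0.28 in siLmod1 and -0.30 in siSirt1 against siCtrl and at -0.59 between the knockdowns (edgeR adjusted p = 0.00241, 0.0482 and 0.00414). Leaving out line 1, the latter values were -0.31 (adjusted p = 0.11) and -0.56 (adjusted p = 0.0209).

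Among 13 regulators of mitochondrial transcription and biogenesis 4 rose and 1 fell in siLmod1. Ppargc1a, the coactivator that drives mitochondrial biogenesis, had the firmest change. It was at 16.6, 25.3, 23.8, 33.1 and 10.7 CPM in siCtrl, against 25.3, 37.9, 40.2, 57.1 and 20.3 CPM in siLmod1, higher in each line though the groups overlapped (0.72, edgeR adjusted p = 7e-05, and 0.578 without the block). In siSirt1 it was at 0.32 and not called (adjusted p = 0.14). The 1 of the 13 that rose in siSirt1 was Myc, a transcription factor of growth, at 12.6, 8.62, 16.6, 18.8 and 18.3 CPM in siCtrl, against 20.5, 9.97, 30.3, 78.8 and 56.9 CPM in siSirt1 (1.11, edgeR adjusted p = 0.0394). Each line was higher, lines 4 and 7 by the most, and without line 1 it was 1.21 (adjusted p = 0.0832). Gabpa, a subunit of a factor that binds promoters of nuclear genes for mitochondrial proteins, rose by 0.19 in siLmod1 without overlap. Of the 13 mRNAs of the mitochondrial genome, 2 rose in siLmod1, mt-Co1 by 0.25 and mt-Nd4 by 0.23, 12 of 13 lay above 0, and the median was 0.17. Within lines 1, 2, 3, 4 and 7 the median was 0.24, 0.10, -0.07, 0.44 and 0.24. Their levels differed widely, with mt-Co1 at 6480 CPM or more. Over the 15 libraries mt-Co2 was at 0.35 to 1.83 CPM and mt-Atp8 at 0.12 to 0.96 CPM, the lowest near the limit of 3 counts. In siSirt1 against siCtrl none was called, 9 of 13 lay below 0, and the median was -0.15. Within lines 1, 2, 3, 4 and 7 it was -0.07, 0.19, 0.02, -0.38 and -0.14.

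The cytosolic ribosomal protein genes, which serve the other ribosome of the cell, are set beside these values. Of 80 tested, 44 fell and 0 rose in siLmod1 with the block, with a median of -0.16, where the mitoribosomal genes had 0.07 and 16.5% of all genes fell. Without the block 0 of the 80 were called by edgeR, 5 were lower and 0 higher at an unadjusted p under 0.05, and DESeq2 called 1 lower. The blocked fit without line 1 called 24 lower. Their summed level was 73797 ± 7963 TPM in siCtrl and 66936 ± 6391 TPM in siLmod1 (SD, n = 5), lower in 5 of 5 lines. In siSirt1 against siCtrl 0 were called, with a median of 0.03, and the mitoribosomal genes had -0.09. The summed level of the cytosolic genes, which carries no TMM scaling, was 83851 ± 9439 TPM in siSirt1. It was above siCtrl in each line but line 2, at 73331 against 74546 TPM. The difference between these lists was not tested.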

How the data were processed

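The counts are the authors' raw counts per Ensembl gene, deposited as a table for each pair of groups, and they were identical for a library in every table that holds it. The TPM values are the authors' too. Normalized counts were not used. Tool and build in the submitters' processing notes are DESeq2 and mm10, with aligner, counter and annotation not given in the sources used here. Per the labels' protocols the libraries were polyA TruSeq v2, which keeps no strand. Of 49315 IDs, 49056 matched GENCODE M21, from which symbols, coordinates and 3′ UTRs were taken.

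Each pair of groups was fitted over all genes in edgeR 4.0.16 (R 4.3.3; filterByExpr, TMM, quasi-likelihood F test, Benjamini-Hochberg adjusted p under 0.05), first with group alone, then with the line as a block. DESeq2 1.42.0 was an alternative. The scripts were tested on simulated data. After removal of group means, same-numbered libraries of different groups correlated at 0.278 to 0.889 (median 0.713, 15 pairs, 15716 genes) and those of different numbers at -0.517 to 0.269 (median -0.132). The series' text names 5 primary lines, so the numbers were taken to pair the libraries, and blocked values are printed where they change a call. On the third principal component the siSirt1 library of line 1 was at -37.0, the other libraries of line 1 at -8.74 and -7.87, and those of line 3 at -35.6 to -48.3. The limit of 3 counts lay between 0.0893 and 0.143 CPM and covers counting error only. log2 CPM used a pseudocount of 1.

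The named genes were the members called without the block, the 6 with the smallest blocked p in each direction and comparison, the 5 highest and 3 lowest in TPM, those with the largest and smallest spread, and the 2 genes with the smallest p of each other list. The members that the blocked fit called beyond these, and those with no overlap or with a word, were named after their values were seen. The members and lists were chosen with earlier results of these data known. Of the 78 genes 42 overlap another annotated gene, 26 of them a protein-coding one. Words of 7 bases were scored over 3′ UTRs of at least 20 bases in genes above 1 log2 CPM, with UTR length adjusted for and over 30 genes a word required, and Mrps15 has no such UTR. Values were handled in Python 3.11.15 with pandas 2.3.3 and scipy 1.17.1.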

Additional observations from a re-analysis of the deposited data

Results flagged for a closer look

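Over 31 quantities in 3 groups of 5 libraries, 8 of 93 groups held a library far from the others by Dixon's criterion, which chance alone meets in about 1 group in 20. Line 4 was the high library in 4 of these. Mrpl41 was at 63.6 CPM in siCtrl of line 4, where the other lines were at 37.8 to 43.5 CPM. Mrpl3 was at 86.7 CPM in siLmod1 of line 4, against 65.1 to 69.6 CPM. Mrpl10, a protein of the stalk base, was at 70.8 CPM in siSirt1 of line 4, against 51.1 to 54.2 CPM. The summed level of the small-subunit genes was 1570 TPM in siSirt1 of line 4, against 1441 to 1467 TPM. Line 1 was high for Mrpl51, at 109.3 CPM in siCtrl against 89.2 to 94.7 CPM, and at 135.1 CPM in siLmod1 against 100.2 to 104.0 CPM, but not in siSirt1. Mrpl37 was at 76.7 CPM in siCtrl of line 2, against 65 to 67.5 CPM. Mrps10 was the low case, at 30.1 CPM in siSirt1 of line 7, against 41.4 to 43.9 CPM.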

How the results depend on the processing

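Without the replicate block, no alternative called a member in siLmod1 against siCtrl. The replicate block gave 9 higher and 2 lower, DESeq2 with the block 7 and 2, a joint fit of all 15 libraries and the block 2 and 1, and the block with DESeq2 size factors 9 and 2, with library totals 19 and 2 and with upper quartiles 12 and 2. In siSirt1 against siCtrl, DESeq2 called 2 lower, the fit of all 15 libraries 2, the replicate block 3, DESeq2 with the block 6, the fit of all 15 with the block 1 higher and 11 lower, and the block with DESeq2 size factors 3 lower, with library totals 1 higher and 1 lower and with upper quartiles 2 lower. Library totals alone moved the median there to 0.0148, and to 0.0209 with the block. In siSirt1 against siLmod1, where 3 were lower, library totals gave 1, no filter 0, DESeq2 6 and the fit of all 15 libraries 5. The replicate block gave 1 higher and 10 lower, as did DESeq2 with the block, the fit of all 15 with the block 3 and 23, and the block with DESeq2 size factors or upper quartiles 1 and 9 and with library totals 2 and 7. Over all genes, the block with library totals called 2741 higher and 1978 lower in siLmod1, against 1944 and 2486 with TMM. In siSirt1 against siCtrl it called 797 and 441, against 406 and 648. Between the knockdowns it called 1409 and 904, against 1115 and 1264. For the joint fits and DESeq2 with the block the share over all genes is not given here. Those counts are not read against a background. The cause of these shifts was not tested.

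Leaving out 1 library with no block called 0 members in siLmod1 against siCtrl. Leaving out 1 line with the block called 3 to 12 higher and 2 lower each time. Without line 1, 7.79% of all genes were called higher and 11% lower, and the shares for the other lines are not given here. The median ranged from 0.0113 to 0.118 and the large-minus-small difference of medians from 0.00551 to 0.0519 with no block and from 0.0135 to 0.0707 with it. In siSirt1 against siCtrl 0 members were called with no block and 0 higher and 1 to 2 lower with it, and the values ranged from -0.142 to -0.0727 and from -0.0269 to 0.0323 with no block and -0.0451 to 0.00364 with it (-0.0202 without line 3), so that difference changed sign. In siSirt1 against siLmod1 0 higher and 0 to 2 lower were called with no block, 0 to 1 higher and 3 to 7 lower with it, and the values ranged from -0.207 to -0.117 and from -0.0273 to 0.0230. With subunits assigned by structure the ratio of mean TPM was 1.32 in siCtrl, 1.32 in siLmod1 and 1.30 in siSirt1, and from medians it was 1.43 in siSirt1. Between the knockdowns, 3 members near 0 changed sign on leaving out 1 library: Mrps10 (-0.000302 to 0.149), Mrps15 (-0.0017 to 0.0923) and Mrps9 (-0.000917 to 0.141). Over all genes, library totals moved the share of blocked calls that were higher from 43.9% to 58.1% in siLmod1, from 38.5% to 64.4% in siSirt1 and from 46.9% to 60.9% between the knockdowns. The lowest count was 28, for Mrpl53, whose blocked SE of 0.179 in siLmod1 against siCtrl was the largest of the members (median 0.0610).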
